A study of Mus musculus with 9 samples.

Results

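The 9 transcription factors of the granule neuron lineage described here were Pax6, Emx2, Neurog2, Eomes, Tbr1, Neurod1, Neurod2, Neurod6 and Prox1. They were found as the non-control array probes that carried one of these gene names, 15 probes in all, out of 27493 genes with a probe. Messenger RNA was measured on 9 one-colour Agilent arrays, 3 for each of 3 populations of sorted mouse brain cells. The first were DCX-DsRed cells of the hippocampus, from mice whose red fluorescent protein DsRed is driven by the Dcx promoter; Dcx encodes a microtubule-binding protein of newborn neurons. A second population was Sox2-GFP cells from the SVZ (subventricular zone, a stem cell niche beside the lateral ventricle), taken from mice with green fluorescent protein driven by the Sox2 promoter; Sox2 is a factor that neural stem cells carry. The other population was Sox2-GFP cells of the hippocampus. All mice were 6 to 8 weeks old, tissue of 10 dissections was pooled for an experiment, and RNA of 1000 sorted cells was amplified for each array. The labels do not say that the replicates A, B and C of a population came from separate pools, so the p-values below speak only for the spread of these arrays, which may be technical.

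Granule neurons of the dentate gyrus are the one neuron type that the adult hippocampus goes on making. In that lineage the stem cells carry Pax6 and the regional factor Emx2, the proneural factor Neurog2 and then Eomes (Tbr2) mark the intermediate progenitors, the basic helix-loop-helix (bHLH) factors Neurod1, Neurod2 and Neurod6 and the T-box factor Tbr1 come with neuronal differentiation, and the homeobox factor Prox1 gives and keeps granule cell identity. Stem cells of the SVZ mostly make interneurons of the olfactory bulb, and Pax6, Eomes and Neurog2 also act in a smaller part of that lineage.

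The bHLH members bind E-boxes, whose letters are CANNTG, and the NeuroD and neurogenin factors are known for the form CAGATG, which is one kind of CANNTG. RefSeq promoter windows on build GRCm38.p6, running from 250 bases before a transcription start to 50 bases after it, were found for all 9 members, 11 windows in all. Read on both strands, CANNTG stood in 6 of the 11 windows, in 6 genes, against 72.3% of all 32851 mouse windows, and CAGATG stood in 2 of the 11 windows, against 17.2% of all windows. The 2 windows with CAGATG, of Prox1 and Neurod2, are printed with the Pax6 window that holds an E-box, because Prox1 and Pax6 carry the largest differences below. The windows lie at chr1:190170778-190171077 on the minus strand for Prox1, chr11:98329596-98329895 on the minus strand for Neurod2 and chr2:105682213-105682512 on the plus strand for Pax6. All run 5′ to 3′ along the gene, and capitals mark each CANNTG.
Prox1: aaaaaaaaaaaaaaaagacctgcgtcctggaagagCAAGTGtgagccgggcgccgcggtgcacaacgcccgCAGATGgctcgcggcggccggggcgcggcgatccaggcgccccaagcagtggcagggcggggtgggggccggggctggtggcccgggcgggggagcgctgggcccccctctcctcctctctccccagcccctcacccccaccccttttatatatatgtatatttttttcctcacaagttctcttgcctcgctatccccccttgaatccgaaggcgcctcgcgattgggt
Neurod2: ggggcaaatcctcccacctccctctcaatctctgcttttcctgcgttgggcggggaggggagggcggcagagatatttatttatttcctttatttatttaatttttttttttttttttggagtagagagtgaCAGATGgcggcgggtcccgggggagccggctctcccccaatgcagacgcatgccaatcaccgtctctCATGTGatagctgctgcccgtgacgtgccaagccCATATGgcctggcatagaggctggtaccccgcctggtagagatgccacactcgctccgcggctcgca
Pax6: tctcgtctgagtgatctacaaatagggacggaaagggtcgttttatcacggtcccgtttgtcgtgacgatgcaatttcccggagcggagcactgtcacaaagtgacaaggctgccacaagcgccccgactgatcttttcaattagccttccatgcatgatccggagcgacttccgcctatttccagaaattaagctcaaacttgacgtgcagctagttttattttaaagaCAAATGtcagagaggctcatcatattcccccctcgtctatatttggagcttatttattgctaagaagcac
In the Prox1 window the CAGATG begins 179 bases before the start and a second E-box, CAAGTG, 215 bases before it. In the Neurod2 window CAGATG begins 118 bases before the start, and 2 further E-boxes begin 51 and 17 bases before it. The one E-box of the Pax6 window, CAAATG, begins 20 bases before the start. A match of letters is a description and shows no binding.

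Levels are log2 signal minus the 75th percentile of the same array, so a gene at that percentile reads 0 and each unit doubles the signal. A probe's level is set against itself across arrays and not against other probes. Between 80.2% and 88.3% of probes were well above background on an array, no probe was saturated, and the number of arrays limits the precision. Genes with a probe well above background on 3 or more of the 9 arrays were tested, 24891 in all, and a gene was called changed at an adjusted p under 0.05. Hippocampus Sox2-GFP array C stood apart. It correlated across genes at r = 0.816 and 0.783 with the other 2 arrays of its group, which correlated with each other at r = 0.919. The mRNAs of the reporters' own genes did not sort the populations as the labels do, and Sox2 read higher on every DCX-DsRed array than on any hippocampus Sox2-GFP array. Sox2 stood at 1.30, 1.71 and 1.70 on the hippocampus DCX-DsRed arrays A, B and C, at 0.92, 2.07 and 2.28 on the SVZ Sox2-GFP arrays, and at 0.94, 0.92 and -0.95 on the hippocampus Sox2-GFP arrays. Dcx stood at -1.29, -0.78 and 1.28 on the DCX-DsRed arrays, at 2.57, 3.05 and -2.36 on the SVZ arrays, and at -0.20, -0.77 and -2.88 on the hippocampus Sox2-GFP arrays. Neither gene passed the test in any comparison (adjusted p between 0.333 and 0.940), so these genes do not check the labels. When slide entered the fit as a block, which leaves array C to stand for hippocampus Sox2-GFP, Sox2 was called higher in both other populations (by 3.004 in DCX-DsRed cells, adjusted p = 0.0230, and by 2.95 in SVZ cells, adjusted p = 0.0192).

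Of the 9 members, 7 passed the filter. Neurod1 and Neurod6 had a probe that was not well above background on any of the 9 arrays, and they were not tested. None of the 7 tested members was called in any of the 3 comparisons by limma. The widest separation was that of Prox1, which was higher on every hippocampus DCX-DsRed array than on any array of either Sox2-GFP population. Pax6 and Emx2 were lower on every hippocampus DCX-DsRed array than on any SVZ Sox2-GFP array. Eomes, Neurog2 and Tbr1 overlapped between all 3 populations.

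**Figure D1:**
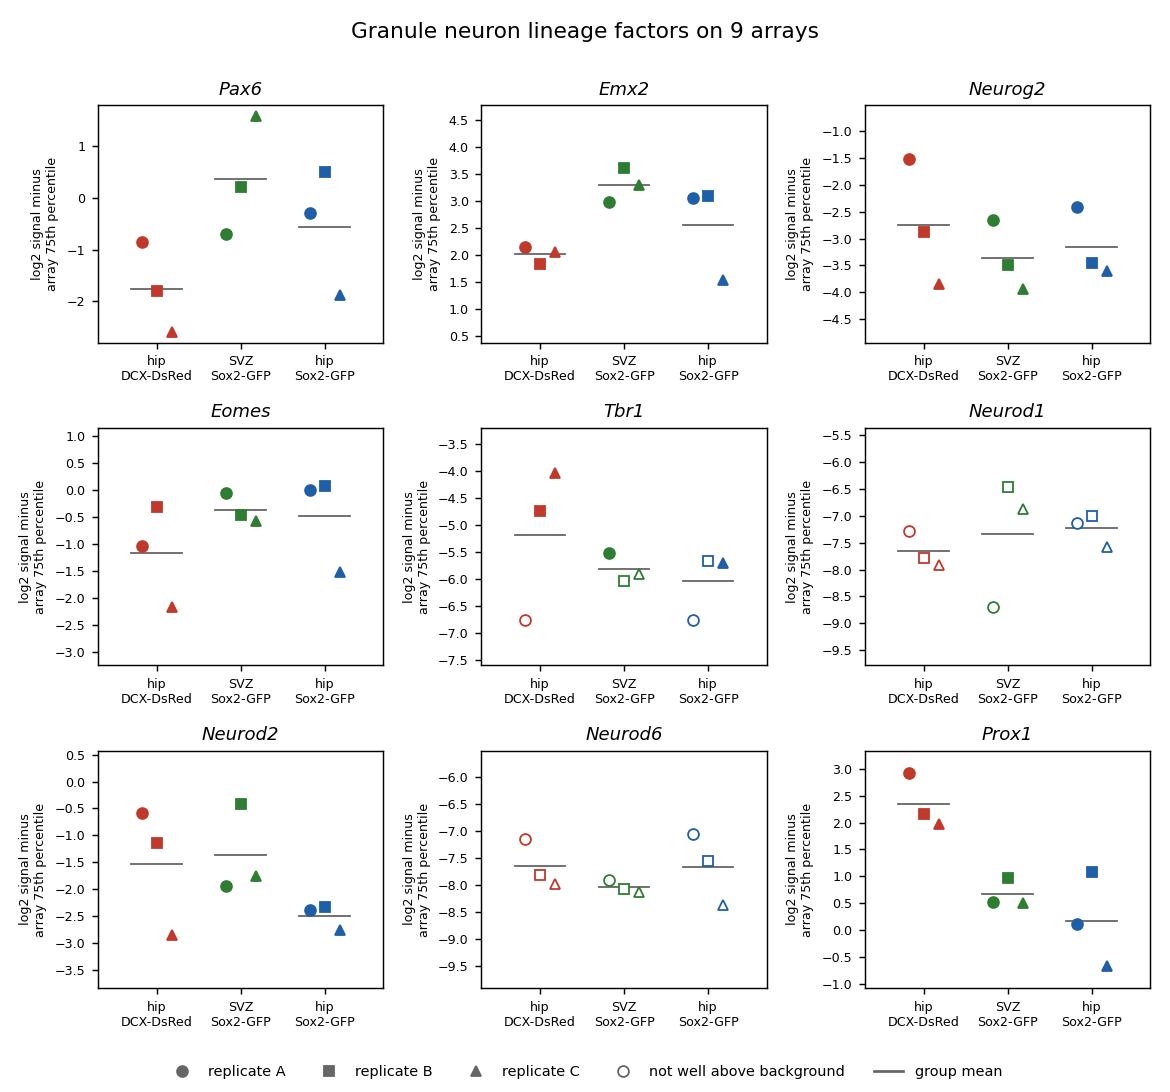
Level of each of the 9 factors on each array, as log2 signal minus the array's 75th percentile (vertical axis, one panel a gene), in hippocampus DCX-DsRed, SVZ Sox2-GFP and hippocampus Sox2-GFP cells. Points are arrays, open where the probe was not well above background, and bars are group means. The 3 red Prox1 points, at 1.97 to 2.91, lie above all others, and all Neurod1 and Neurod6 points are open.

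Hippocampus DCX-DsRed cells against hippocampus Sox2-GFP cells sets the newborn neuron reporter against the stem cell reporter within one region. Prox1 stood 2.17 log2 units higher in DCX-DsRed cells, a 4.49-fold difference, and was the one member of the 7 whose arrays did not overlap. It missed the threshold narrowly (adjusted p = 0.0567). Pax6, Emx2 and Eomes lay on the low side in DCX-DsRed cells and Neurog2, Tbr1 and Neurod2 on the high side, each within an interval that spans 0. In all, 0 of 7 members were called, against 3.19% of all genes tested, and 1 of 7 members (14.3%) had an unadjusted p under 0.05, against 16.9% of all genes. The arrays of 1 member of 7 did not overlap in this comparison, against 24.7% of all genes. The median difference of the 7 members was 0.41, against 0.076 over all genes. Here and below, fewer cells of a type and less RNA per cell cannot be told apart.

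SVZ Sox2-GFP cells against hippocampus Sox2-GFP cells sets the regions against each other under one reporter. Again 0 of 7 members were called, against 0.402% of all genes tested, and 0 of 7 had an unadjusted p under 0.05, against 10.8% of all genes. Neurod2 was the one member of 7 that did not overlap, against 16.9% of all genes. The median difference of the members was 0.49, against 0.077 over all genes, and 6 of 7 members lay on the high side in SVZ cells. The share of all genes on that side was not counted. With 1 array left out, the lowest differences of those 6 were 0.26 for Pax6, 0.23 for Emx2, 0.077 for Prox1 and 0.65 for Neurod2. For Tbr1 and Eomes they were -0.14 and -0.41. Those of Pax6, Emx2, Prox1 and Eomes came without hippocampus Sox2-GFP array C.

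Hippocampus DCX-DsRed cells against SVZ Sox2-GFP cells differ in region and reporter together, and this comparison serves only to order the levels. No member of the 7 was called, against 1.52% of all genes tested, while 3 of 7 (Pax6, Emx2 and Prox1) had an unadjusted p under 0.05, against 13.7% of all genes. The same 3 members did not overlap, 42.9% of the 7, against 21.1% of all genes. The 3 comparisons share their arrays in pairs, so they are not separate evidence.

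**Figure D2:**
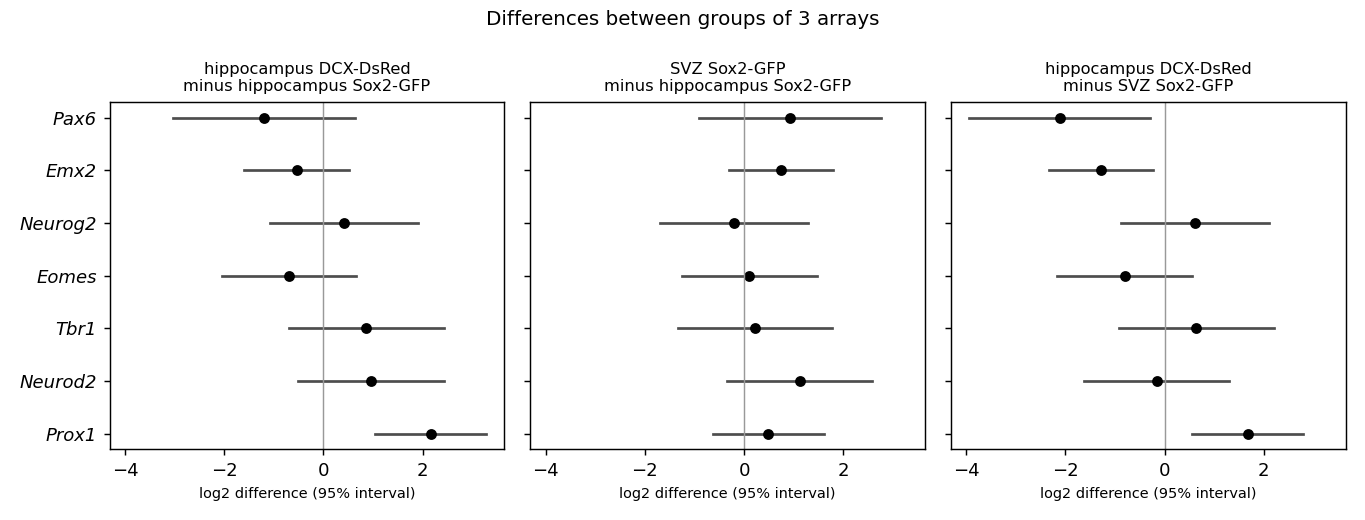
Log2 difference of each of the 7 tested factors (points) with its 95% interval (lines), in the comparisons hippocampus DCX-DsRed minus hippocampus Sox2-GFP, SVZ Sox2-GFP minus hippocampus Sox2-GFP, and hippocampus DCX-DsRed minus SVZ Sox2-GFP. The Prox1 interval lies above 0 in both panels that start from DCX-DsRed cells, and the Pax6 and Emx2 intervals lie below 0 in the comparison with SVZ cells; these intervals are not adjusted for the number of genes tested, and no factor passed the adjusted threshold.

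Pax6 is a paired-box and homeobox factor of neural stem cells. Its probe with the highest signal, printed in 10 spots on each array, read -0.86, -1.81 and -2.60 on the hippocampus DCX-DsRed arrays A, B and C, -0.69, 0.20 and 1.58 on the SVZ Sox2-GFP arrays, and -0.29, 0.50 and -1.89 on the hippocampus Sox2-GFP arrays. All DCX-DsRed values lay below all SVZ values, and the hippocampus Sox2-GFP values spanned both. The spots of this probe spread by an SD of 0.033 to 0.14 log2 units within an array, far less than the arrays of a group. The group means were -1.75 ± 0.87 in DCX-DsRed cells, 0.36 ± 1.14 in SVZ cells and -0.56 ± 1.22 in hippocampus Sox2-GFP cells (SD, n = 3 arrays each). Pax6 differed by -2.12 between DCX-DsRed and SVZ cells (SE 0.80, 95% interval -3.95 to -0.28, adjusted p = 0.284), a 4.34-fold lower mean in DCX-DsRed cells. Between DCX-DsRed and hippocampus Sox2-GFP cells it differed by -1.19 (interval -3.03 to 0.64, adjusted p = 0.499), and between SVZ and hippocampus Sox2-GFP cells by 0.92 (interval -0.91 to 2.76, adjusted p = 0.717). On slide 3, which held arrays of all 3 populations, the differences were -0.71 for DCX-DsRed minus hippocampus Sox2-GFP, 2.78 for SVZ minus hippocampus Sox2-GFP and -3.49 for DCX-DsRed minus SVZ cells, and on slide 1 the last was -0.64.

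The other 2 Pax6 probes did not read alike. Relative to the probe that maps first along the gene, the 10-spot probe lies 11.5 kb and the last probe 13.2 kb further towards the 3′ end. The first probe, A_52_P469306, read -1.16, -1.66 and -2.51 in hippocampus DCX-DsRed cells, -0.042, 0.24 and 0.45 in SVZ cells, and -0.60, -1.57 and -2.76 in hippocampus Sox2-GFP cells. It put the hippocampal populations together below the SVZ cells, with no overlap between SVZ and either of them. The last probe, A_51_P489935, read -5.24, -5.41 and -6.77 in DCX-DsRed cells, -2.20, -1.34 and -2.81 in SVZ cells, and -3.39, -2.43 and -3.42 in hippocampus Sox2-GFP cells. It put both Sox2-GFP populations above the DCX-DsRed cells without overlap, and in DCX-DsRed cells it was well above background on 1 of 3 arrays. In the array annotation it is not named by a curated RefSeq transcript (NM), unlike the other 2 Pax6 probes.

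When each probe was tested in its own right, a setting chosen after the data had been seen, the last Pax6 probe was called. It differed by -2.73 between hippocampus DCX-DsRed and hippocampus Sox2-GFP cells (SE 0.58, at least 5.27-fold lower, limma adjusted p = 0.0472), where 3.17% of 36779 probes were called. Between DCX-DsRed and SVZ cells it differed by -3.69 (SE 0.58, at least 10.3-fold lower, adjusted p = 0.0273), where 1.38% of probes were called. Both folds are bounds, set by the lowest signal well above background, because 2 of the 3 DCX-DsRed readings were not well above it. The first of these calls was lost when any one of the 9 arrays was left out (adjusted p 0.0523 to 0.129), and the other was lost without any one array except hippocampus Sox2-GFP B or C (adjusted p 0.0208 to 0.0826). With slide as a block the differences were -2.82 (adjusted p = 0.117) and -3.91 (adjusted p = 0.0353). The Pax6 probes A_52_P469306 and A_52_P565559 differed by -0.13 and -1.19 in the first of these comparisons, and neither was called.

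**Figure D3:**
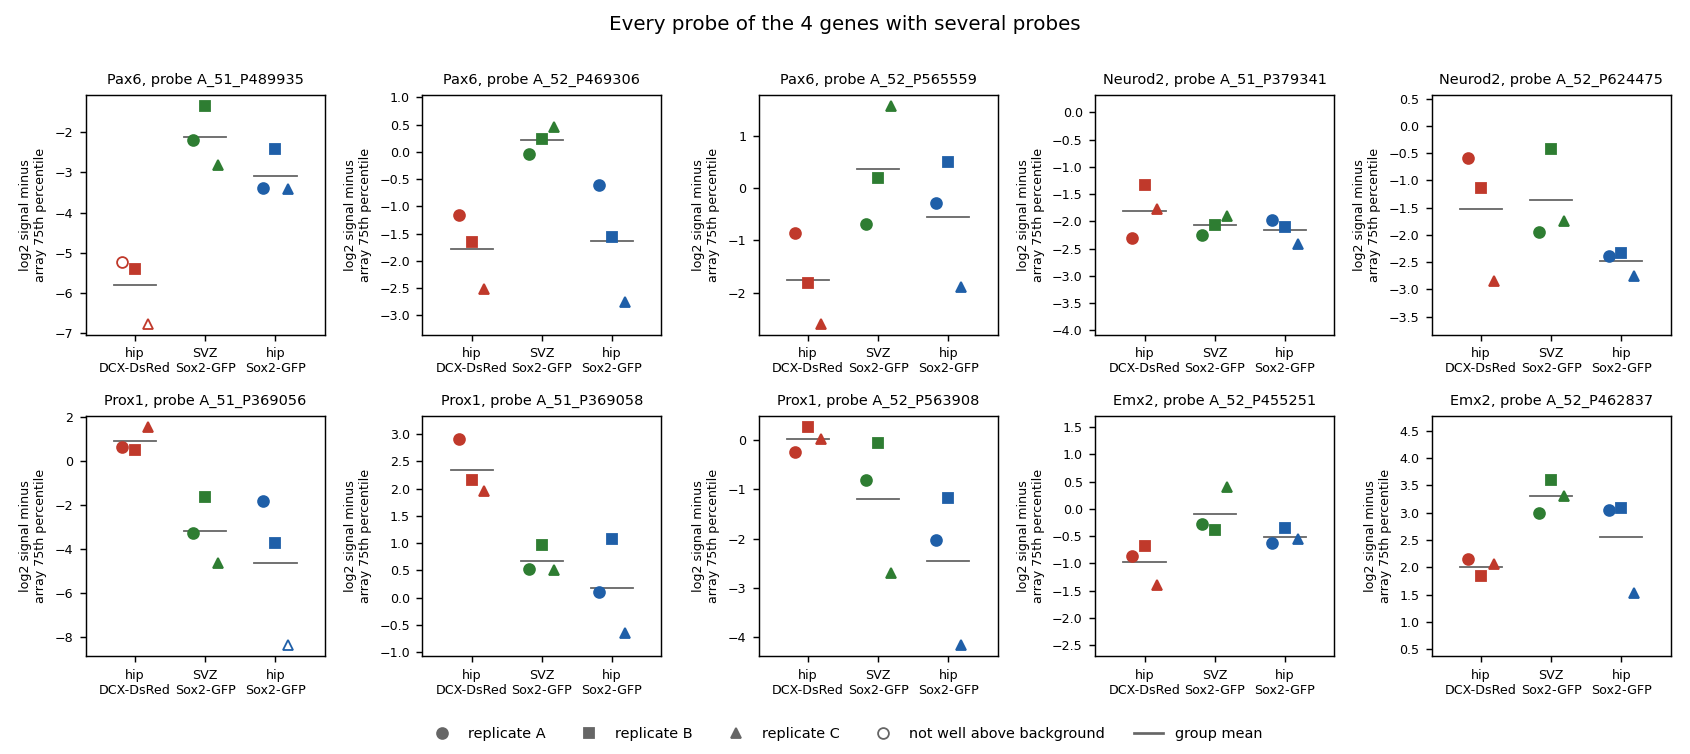
Level of every probe of Pax6, Neurod2, Prox1 and Emx2, the 4 genes with more than 1 probe, on each array, as log2 signal minus the array's 75th percentile (vertical axis, one panel a probe). Points are arrays, open where not well above background, and bars are group means. All 3 Prox1 probes have the DCX-DsRed points above the hippocampus Sox2-GFP points, while the 3 Pax6 probes place hippocampus Sox2-GFP differently.

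Emx2 is a homeobox factor that patterns the medial cortex and hippocampus. Its brighter probe read 2.15, 1.84 and 2.06 on the hippocampus DCX-DsRed arrays, 2.99, 3.61 and 3.31 on the SVZ Sox2-GFP arrays, and 3.05, 3.09 and 1.54 on the hippocampus Sox2-GFP arrays. The DCX-DsRed values lay below all SVZ values, and hippocampus Sox2-GFP array C lay well below arrays A and B of its group. Emx2 differed by -1.29 between DCX-DsRed and SVZ cells (SE 0.46, 95% interval -2.34 to -0.23, 2.44-fold lower, adjusted p = 0.252), and the difference within a slide was -0.998 on slide 1 and -1.40 on slide 3. Between DCX-DsRed and hippocampus Sox2-GFP cells it differed by -0.54 (interval -1.60 to 0.51, adjusted p = 0.6005), and on slide 3 by 0.52. Between SVZ and hippocampus Sox2-GFP cells it differed by 0.74 (interval -0.31 to 1.80, adjusted p = 0.603), and on slide 3 by 1.92. The difference of 0.74 became 1.85, and was called, with slide as a block (3.61-fold, adjusted p = 0.0318), a fit in which hippocampus Sox2-GFP rests on array C. The dimmer Emx2 probe read -0.87, -0.68 and -1.40 in DCX-DsRed cells, -0.28, -0.39 and 0.40 in SVZ cells, and -0.63, -0.36 and -0.55 in hippocampus Sox2-GFP cells. It too put the DCX-DsRed arrays below all SVZ arrays, and in this probe below all hippocampus Sox2-GFP arrays as well, with no call (adjusted p = 0.342 against SVZ cells).

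Neurog2, the proneural bHLH factor that starts neuronal fate, read -1.52, -2.89 and -3.83 on the hippocampus DCX-DsRed arrays, -2.66, -3.49 and -3.94 on the SVZ Sox2-GFP arrays, and -2.42, -3.45 and -3.61 on the hippocampus Sox2-GFP arrays. Its probe was well above background on all 9 arrays, and the 3 populations overlapped; the DCX-DsRed arrays spread most widely, with array A above all 8 others. The differences were 0.41 for DCX-DsRed minus hippocampus Sox2-GFP (interval -1.07 to 1.90, adjusted p = 0.800), -0.20 for SVZ minus hippocampus Sox2-GFP (interval -1.69 to 1.28) and 0.61 for DCX-DsRed minus SVZ cells (interval -0.87 to 2.10).

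Eomes, the T-box factor of intermediate progenitors, read -1.04, -0.32 and -2.18 on the hippocampus DCX-DsRed arrays, -0.059, -0.48 and -0.58 on the SVZ Sox2-GFP arrays, and 0.0041, 0.064 and -1.52 on the hippocampus Sox2-GFP arrays. The lowest array of each population was its replicate C, and the populations overlapped. Eomes differed by -0.70 between DCX-DsRed and hippocampus Sox2-GFP cells (interval -2.05 to 0.66, adjusted p = 0.602), by 0.11 between SVZ and hippocampus Sox2-GFP cells (interval -1.25 to 1.47) and by -0.81 between DCX-DsRed and SVZ cells (interval -2.16 to 0.55).

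Of the NeuroD family, which drives and maintains neuronal differentiation, Neurod2 alone could be tested. Its brighter probe read -0.59, -1.14 and -2.84 on the hippocampus DCX-DsRed arrays, -1.94, -0.42 and -1.74 on the SVZ Sox2-GFP arrays, and -2.38, -2.33 and -2.75 on the hippocampus Sox2-GFP arrays. All SVZ values lay above all hippocampus Sox2-GFP values, and the DCX-DsRed values spanned both. Neurod2 differed by 0.96 between DCX-DsRed and hippocampus Sox2-GFP cells (interval -0.50 to 2.43, adjusted p = 0.495), by 1.12 between SVZ and hippocampus Sox2-GFP cells (interval -0.34 to 2.59, adjusted p = 0.581) and by -0.16 between DCX-DsRed and SVZ cells (interval -1.62 to 1.31). The dimmer Neurod2 probe, 0.775 kb further towards the 3′ end, varied less. It read between -2.31 and -1.34 in DCX-DsRed cells, between -2.26 and -1.89 in SVZ cells and between -2.42 and -1.97 in hippocampus Sox2-GFP cells, so the gap that the brighter probe showed was not seen in it.

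Neurod1 read between -7.91 and -7.29 on the hippocampus DCX-DsRed arrays, between -8.69 and -6.46 on the SVZ Sox2-GFP arrays and between -7.58 and -7.00 on the hippocampus Sox2-GFP arrays. Neurod6 read between -7.99 and -7.16, between -8.12 and -7.90, and between -8.38 and -7.05 in the same order of populations. Neither probe was well above background anywhere, so no fold and no order is given for these genes. The lowest signal of a probe well above background lay between -6.64 and -5.02 on an array.

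Tbr1, the T-box factor of postmitotic glutamatergic neurons, read -6.76, -4.74 and -4.04 on the hippocampus DCX-DsRed arrays, -5.52, -6.04 and -5.90 on the SVZ Sox2-GFP arrays, and -6.76, -5.66 and -5.71 on the hippocampus Sox2-GFP arrays. It was well above background on 4 arrays, which were DCX-DsRed B and C, SVZ A and hippocampus Sox2-GFP C. The DCX-DsRed cells held both the highest and nearly the lowest value. The differences were 0.87 for DCX-DsRed minus hippocampus Sox2-GFP (interval -0.69 to 2.42, adjusted p = 0.570), 0.22 for SVZ minus hippocampus Sox2-GFP (interval -1.34 to 1.78) and 0.64 for DCX-DsRed minus SVZ cells (interval -0.92 to 2.20). With background correction by normexp the first of these was 0.050. Most Tbr1 readings were not well above background, so these differences give no size.

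Prox1, the homeobox factor of granule cells, is also known in cells of the oligodendrocyte lineage. Its brightest probe, A_51_P369058, read 2.91, 2.16 and 1.97 on the hippocampus DCX-DsRed arrays, 0.53, 0.97 and 0.51 on the SVZ Sox2-GFP arrays, and 0.11, 1.08 and -0.65 on the hippocampus Sox2-GFP arrays. Each DCX-DsRed array lay above every other array, by a gap of 0.89 to the nearest hippocampus Sox2-GFP array, and the Sox2-GFP populations overlapped. The means were 2.35 ± 0.50 in DCX-DsRed cells, 0.67 ± 0.26 in SVZ cells and 0.18 ± 0.87 in hippocampus Sox2-GFP cells (SD, n = 3 arrays each). Prox1 differed by 2.17 between DCX-DsRed and hippocampus Sox2-GFP cells (SE 0.49, 95% interval 1.05 to 3.29, 4.49-fold higher, adjusted p = 0.0567). It differed by 1.68 between DCX-DsRed and SVZ cells (SE 0.49, interval 0.56 to 2.79, 3.19-fold higher, adjusted p = 0.165) and by 0.49 between SVZ and hippocampus Sox2-GFP cells (interval -0.63 to 1.61, adjusted p = 0.755). In order of level, DCX-DsRed cells came first, and the 2 Sox2-GFP populations below them did not differ beyond their spread.

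Within slide 3 the Prox1 difference was 2.62 for DCX-DsRed minus hippocampus Sox2-GFP, with 1 array each, and 1.23 for DCX-DsRed minus SVZ cells, which on slide 1 was 2.00. Over 19 alternatives of processing the first difference lay between 1.75 and 3.40 with adjusted p between 0.0285 and 0.184, and it passed the threshold in 5 of them. Those were background correction by normexp (2.19, adjusted p = 0.0316), scaling to the median (2.17, adjusted p = 0.0285), keeping only probes well above background on all 9 arrays (2.17, adjusted p = 0.0441), slide as a block (2.88) and leaving out hippocampus Sox2-GFP array B (2.62, adjusted p = 0.0420). With slide as a block, hippocampus Sox2-GFP rests on array C, which had the lowest Prox1 value of the 9 arrays. Without array C the difference was 1.75 (limma adjusted p = 0.0969). The sign never turned, and the threshold was passed or missed according to the setting.

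The other 2 Prox1 probes lie 37.3 and 41.7 kb further towards the 3′ end of the gene on chromosome 1. The nearer one, A_51_P369056, read 0.64, 0.47 and 1.53 in hippocampus DCX-DsRed cells, -3.29, -1.65 and -4.65 in SVZ cells, and -1.85, -3.76 and -8.38 in hippocampus Sox2-GFP cells, where the last value was not well above background. The DCX-DsRed arrays lay above all 6 others, and the difference against hippocampus Sox2-GFP cells was 5.54 (adjusted p = 0.105 in the fit of single probes, 3.69 to 6.95 with an array left out). With that group's arrays held at no less than the lowest signal well above background, the difference was at least 4.81. The call with slide as a block (adjusted p = 0.0172) rests on hippocampus Sox2-GFP array C, the array with the reading at background, so it gives no size. The farther one, A_52_P563908, read -0.24, 0.26 and 0.023 in DCX-DsRed cells, -0.82, -0.059 and -2.71 in SVZ cells, and -2.03, -1.18 and -4.17 in hippocampus Sox2-GFP cells. Like the last Pax6 probe, it is not named by a curated RefSeq transcript, unlike the other 2 Prox1 probes. It differed by 2.48 between DCX-DsRed and hippocampus Sox2-GFP cells (adjusted p = 0.203), without overlap, but overlapped between DCX-DsRed and SVZ cells. All 3 Prox1 probes thus placed DCX-DsRed cells above hippocampus Sox2-GFP cells on every array, by 2.17 and 2.48 in the probes measured on all 9 arrays and by at least 4.81 in the other.

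**Figure D4:**
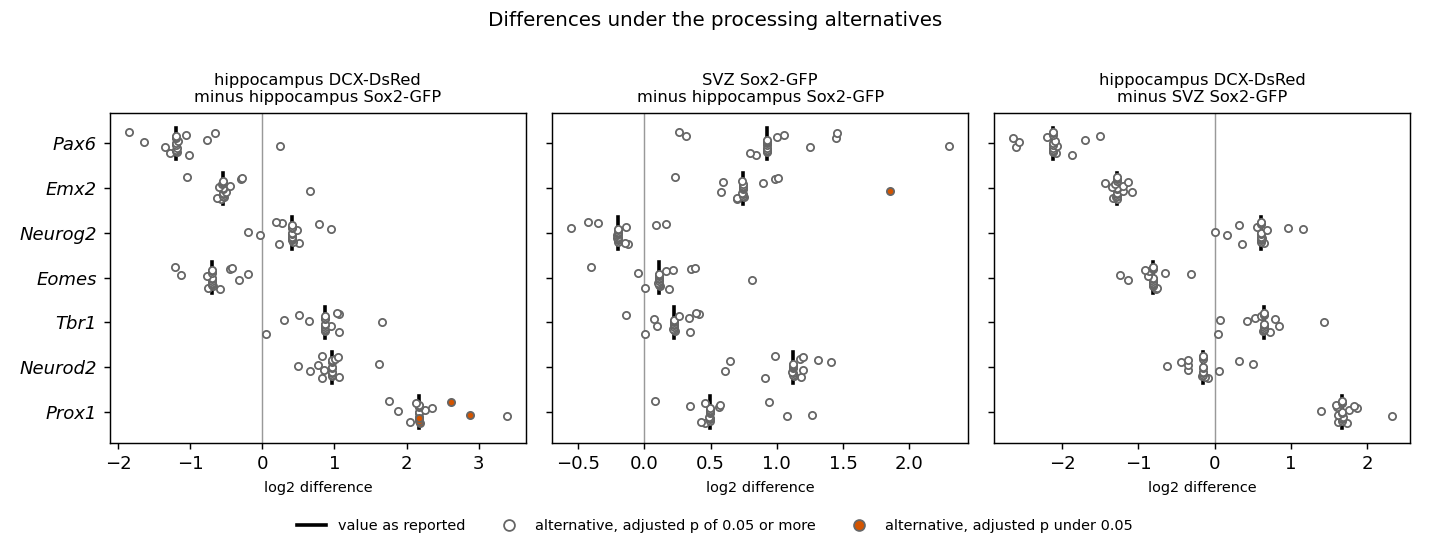
Log2 difference of each tested factor (horizontal axis) under the processing alternatives, 19 for each factor and 18 for Tbr1, in the 3 comparisons. Black bars are the values as reported, and filled points passed an adjusted p of 0.05. Prox1 stays between 1.75 and 3.40 in the first panel with 5 filled points, 3 of them close to the black bar, and Emx2 has 1 filled point in the second.

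Across the 9 arrays the levels of Pax6 and Emx2 went together most among the 21 pairs of tested members (Pearson r = 0.840, Spearman rho = 0.900), and Pax6 with Eomes came next (r = 0.631). These are descriptions over arrays that fall into 3 groups and share amplification and slide. The genes whose pattern over the 9 arrays was most like each member, out of 16505 genes compared, were Gli2 (r = 0.969) and Slc26a6 for Pax6, Lfng (r = 0.988) and Ankrd13d for Emx2, Csf2 (r = 0.958) and Sox1 for Neurog2, and Cdx1 (r = 0.970) and D5Ertd615e for Eomes. They were Trim32 (r = 0.912) and Srsf7 for Tbr1, Gpr50 (r = 0.963) and Nrg1 for Neurod2, and Nutm1 (r = 0.977) and Lrit2 for Prox1. Each is the highest of that many correlations over 9 arrays and is given as a description.

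Other genes of the lineage were read from lists. Of 13 tested neurogenic bHLH and progenitor genes besides the members, and of 18 other transcription factors of cortical glutamatergic neurons, none was called in any comparison by limma. In the first list 3, 2 and 3 genes had an unadjusted p under 0.05 in hippocampus DCX-DsRed minus hippocampus Sox2-GFP, SVZ minus hippocampus Sox2-GFP, and DCX-DsRed minus SVZ cells, and in the second list 2, 2 and 3 genes. Over all genes the shares were 16.9%, 10.8% and 13.7% in the same order. Of 14 genes of immature granule neurons, 1 was called in DCX-DsRed against hippocampus Sox2-GFP cells. It was Stmn1, a tubulin-binding protein of growing neurons, at 3.65 ± 0.33 in DCX-DsRed cells and -0.81 ± 1.93 in hippocampus Sox2-GFP cells (22.0-fold higher, adjusted p = 0.0400). The Stmn1 call held in 11 of 19 alternatives and was lost without any one DCX-DsRed array, without SVZ array A or B, or without hippocampus Sox2-GFP array A. The median difference of that list was 0.91, against 0.076 over all genes, and none of its 14 genes was called in the other 2 comparisons, where its medians were 1.84 for SVZ minus hippocampus Sox2-GFP and -0.77 for DCX-DsRed minus SVZ cells. SVZ array C stood apart in this list, with a median level of -0.44 against 1.68 and 1.60 on SVZ arrays A and B, and without it these medians were 2.16 and -1.42. Without hippocampus Sox2-GFP array C, 1 gene of this list was called higher and 1 lower in DCX-DsRed than in SVZ cells, and 1 of the 18 cortical factors lower.

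Of 15 tested genes of mature granule neurons, 1 was called higher and 1 lower in hippocampus DCX-DsRed than in hippocampus Sox2-GFP cells, with a list median of -0.18. Dock10, a guanine nucleotide exchange factor, was 37.2-fold higher (1.51 ± 0.039 in DCX-DsRed cells, -3.71 ± 2.04 in hippocampus Sox2-GFP cells, adjusted p = 0.0336, held in 13 of 19 alternatives). Rfx3, a factor that also serves the genes of cilia, was 4.38-fold lower (-0.79 ± 0.84 in DCX-DsRed cells, 1.34 ± 0.33 in hippocampus Sox2-GFP cells, adjusted p = 0.0467, held in 5 of 19 alternatives). The Dock10 call was lost without any one DCX-DsRed array, SVZ array A or hippocampus Sox2-GFP array B, and that of Rfx3 without any one of the 9 arrays. Of 16 radial glia and stem cell genes, 1 was called lower in DCX-DsRed cells, Id4, an inhibitor of bHLH factors. In DCX-DsRed minus hippocampus Sox2-GFP cells 7 of the 16 lay above 0, with a list median of -0.20. In DCX-DsRed minus SVZ cells 5 of the 16 lay above 0, with a list median of -0.41. Id4 stood at -1.58 ± 0.91 in DCX-DsRed cells, 3.16 ± 0.69 in SVZ cells and 2.75 ± 0.39 in hippocampus Sox2-GFP cells, 20.1-fold lower than in hippocampus Sox2-GFP cells (adjusted p = 0.00724) and 26.7-fold lower than in SVZ cells (adjusted p = 0.0105). Against hippocampus Sox2-GFP cells the Id4 call held in 18 of 19 alternatives and was lost with slide as a block (adjusted p = 0.0564), and against SVZ cells it held in all 19. Without hippocampus Sox2-GFP array C this list had 2 genes called lower than in hippocampus Sox2-GFP cells and 3 lower than in SVZ cells. None of 9 tested genes of the olfactory bulb and GABA neuron lineage was called in any comparison by limma (1, 3 and 1 of the 9 had an unadjusted p under 0.05 in the same order of comparisons, against 16.9%, 10.8% and 13.7% of all genes). All 9 lay higher in SVZ than in hippocampus Sox2-GFP cells, with a median difference of 1.68 against 0.077 over all genes. Without SVZ array C that median was 3.68. The list medians were 0.52 in DCX-DsRed minus hippocampus Sox2-GFP and -1.16 in DCX-DsRed minus SVZ cells.

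Markers of other cell types moved with the populations beside the members. Of 10 myelinating oligodendrocyte genes, 5 were called higher and none lower in hippocampus DCX-DsRed than in hippocampus Sox2-GFP cells, and 2 higher than in SVZ cells. Of the 5 called, Ermn (at least 302-fold), Mog (46.8-fold) and Cnp (27.0-fold) had the largest differences from hippocampus Sox2-GFP cells, where Ermn was well above background on 2 of 3 arrays, with adjusted p of 0.00480, 0.0210 and 0.0270. Mal (9.32-fold) and Cldn11 (8.90-fold) were the 2 called against SVZ cells (adjusted p of 0.00737 and 0.0255). Ermn was called in 18 of 18 alternatives, Mal in 19 of 19, Mog in 16 of 19, Cnp in 14 of 19 and Cldn11 in 13 of 19, and the last 3 were lost without any one DCX-DsRed array. The log2 of the summed signal of the 10 genes ran from 8.13 to 8.50 in DCX-DsRed cells, 4.57 to 6.37 in SVZ cells and 1.57 to 5.35 in hippocampus Sox2-GFP cells, and none of the 10 was at background throughout. Thus the arrays that were highest for Prox1 were also highest for myelin genes and, by list median, for oligodendrocyte precursor genes. The part of those cells in the Prox1 difference was not tested. The count of 5 lay between 2 and 9 over the alternatives and was 5 without hippocampus Sox2-GFP array C, and the count of 2 against SVZ cells lay between 1 and 6 and was 6 without that array.

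The cells of choroid plexus and ependyma line the ventricles. Of 7 tested choroid plexus genes, 5 were called lower in hippocampus DCX-DsRed than in hippocampus Sox2-GFP cells, among them Ttr (636-fold), Otx2 (at least 102-fold) and Clic6 (36.8-fold), and 2, Ttr (723-fold) and Clic6 (12.7-fold), were called lower in SVZ than in hippocampus Sox2-GFP cells. The log2 of the summed signal of these genes ran from 0.58 to 1.20 in DCX-DsRed cells, 0.84 to 1.41 in SVZ cells and 5.45 to 7.14 in hippocampus Sox2-GFP cells. Of 6 tested ependymal genes, 4 were called lower in DCX-DsRed than in hippocampus Sox2-GFP cells, among them Foxj1 (33.5-fold), Pifo (at least 81.4-fold) and Enkur (at least 42.1-fold), and 1, Enkur (at least 19.8-fold), was called lower than in SVZ cells. No DCX-DsRed array had Enkur or Tek well above background, and Otx2 and Pifo were on 1 of the 3 and Ttr on 2. The folds of Enkur, Tek, Otx2 and Pifo are bounds for this processing, set by the lowest signal well above background. No Ttr reading lay under that signal, so its 636-fold is the plain fold and not a bound. Not all of the DCX-DsRed readings behind it were well above background. Of these calls that of Foxj1 held in 18 of 19 alternatives, Enkur against hippocampus Sox2-GFP cells in 15 of 18 and Pifo in 11 of 18, and the last 2 were lost without any one DCX-DsRed array. The Enkur call against SVZ cells held in 8 of 18 and was lost without any one DCX-DsRed or SVZ array. Ttr, Otx2 and Clic6 were called against hippocampus Sox2-GFP cells in every alternative for DCX-DsRed cells, while in SVZ cells Ttr was called in 13 of 18 and Clic6 in 9 of 19. The log2 of the summed signal of the ependymal genes ran from -1.27 to -0.50 in DCX-DsRed cells, 0.53 to 1.80 in SVZ cells and 3.21 to 3.87 in hippocampus Sox2-GFP cells. Of 8 endothelial and mural genes, Tek (at least 10.1-fold) and Vtn (14.0-fold) were called lower in DCX-DsRed than in hippocampus Sox2-GFP cells (in 14 of 18 and 12 of 19 alternatives), and Tek also lower than in SVZ cells (at least 8.03-fold, 6 of 18 alternatives). With its probes averaged Tek differed by -1.45 from SVZ cells and was called in neither comparison. In DCX-DsRed minus hippocampus Sox2-GFP cells 2 of the 8 lay above 0, with a list median of -1.12. In DCX-DsRed minus SVZ cells 3 of the 8 lay above 0. That list median was -0.71, and 0.19 without SVZ array C. The summed signal of the 8 genes overlapped between all 3 populations. Of 6 tested genes of hippocampal pyramidal neurons, Crym was called, at least 39.4-fold higher in SVZ than in hippocampus Sox2-GFP cells (9 of 18 alternatives), and 57.4-fold lower in DCX-DsRed than in SVZ cells (14 of 18 alternatives), and was well above background on 2 of 3 arrays of each hippocampal population. The 57.4-fold is the plain fold and not a bound. The list as a whole did not follow Crym. In SVZ minus hippocampus Sox2-GFP cells 2 of the 6 genes lay above 0, with a list median of -0.31. In DCX-DsRed minus SVZ cells 3 of the 6 lay above 0, with a list median of -0.40. None of 8 astrocyte, 8 microglia or 6 oligodendrocyte precursor genes was called in any comparison by limma. Those with an unadjusted p under 0.05 numbered 0, 1 and 4 in DCX-DsRed minus hippocampus Sox2-GFP cells (against 16.9% of all genes). They numbered 0, 2 and 2 in SVZ minus hippocampus Sox2-GFP (10.8%) and 5, 0 and 1 in DCX-DsRed minus SVZ cells (13.7%). The list median of the precursor genes was 1.71 to 1.98 on the DCX-DsRed arrays. It was 0.40 to 0.57 on the SVZ arrays and -0.64 to 0.42 on the hippocampus Sox2-GFP arrays. Of the 6, 5 were higher in DCX-DsRed than in hippocampus Sox2-GFP cells, with a median difference of 1.63. All 8 astrocyte genes were higher in SVZ than in hippocampus Sox2-GFP cells, with a median difference of 1.85. The astrocyte list median was 2.25, 2.96 and 3.49 on SVZ arrays A, B and C. On hippocampus Sox2-GFP array C it was -1.24, against 2.65 and 2.84 on arrays A and B of that group. Those arrays A and B thus lay within the range of the SVZ arrays. Without hippocampus Sox2-GFP array C no astrocyte gene was called in SVZ minus hippocampus Sox2-GFP cells. In that setting 3 astrocyte genes were called lower in DCX-DsRed than in hippocampus Sox2-GFP cells and 6 lower than in SVZ cells. Without that array the endothelial and mural genes called against hippocampus Sox2-GFP cells numbered 1, the ependymal genes called against SVZ cells 2, and the choroid plexus genes called in SVZ minus hippocampus Sox2-GFP cells 3. The part of any of these cells in the levels of Pax6 and Emx2 was not tested.

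**Figure D5:**
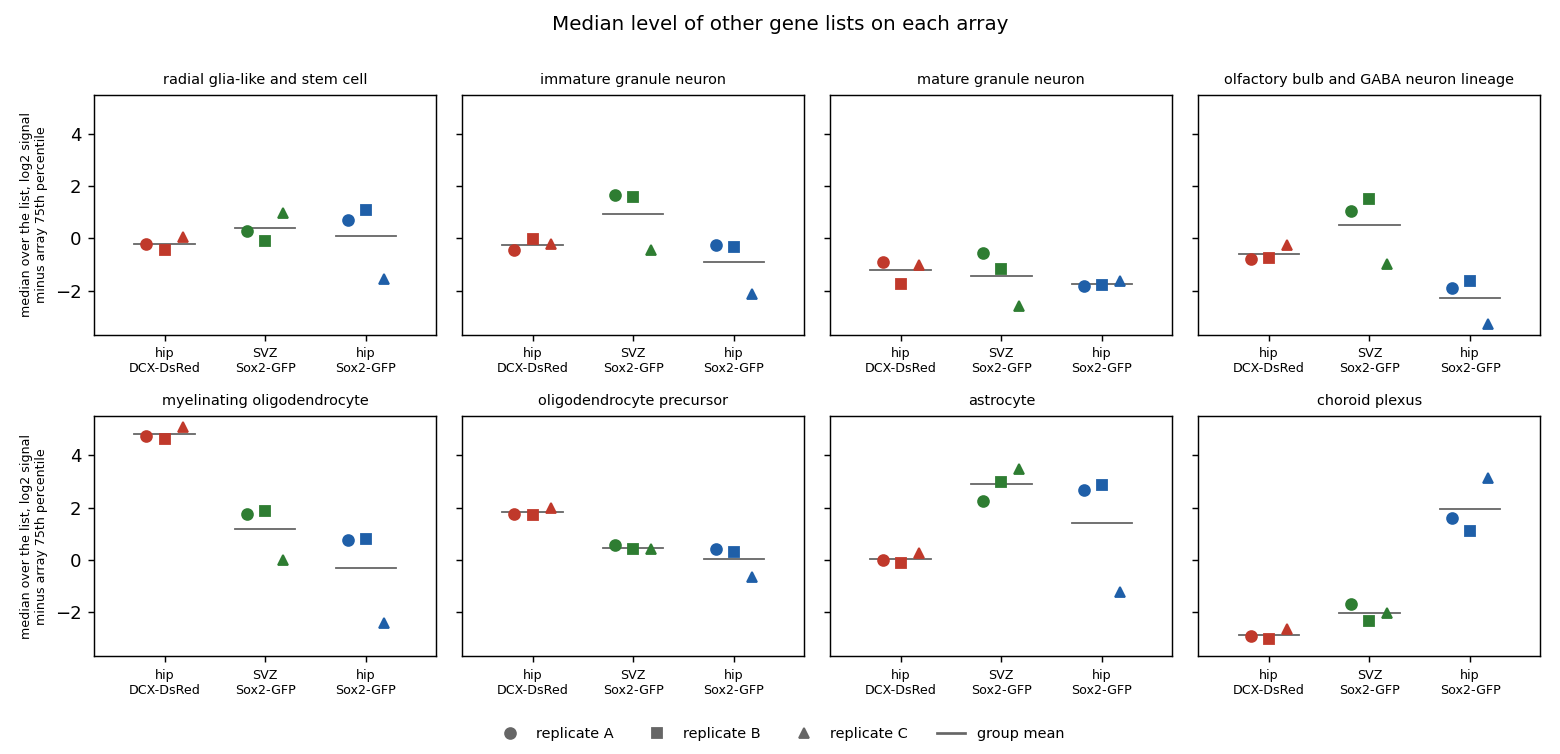
Median level over each of 8 gene lists on each array, as log2 signal minus the array's 75th percentile (vertical axis, one panel a list), in hippocampus DCX-DsRed, SVZ Sox2-GFP and hippocampus Sox2-GFP cells. Points are arrays and bars are group means. The myelin list lies between 4.63 and 5.07 in DCX-DsRed cells, above the other populations, and the choroid plexus list lies between 1.12 and 3.13 in hippocampus Sox2-GFP cells, also above the others.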

How the data were processed

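The deposited files hold scanner output, 1 array each. Agilent Feature Extraction 9.5.1.1 had read the spot intensities, subtracted a fitted background surface and replaced values under the noise by a surrogate, per the file headers, without normalizing arrays to each other. Raw mean and background intensities and other columns of 0 and 1 flags (well above background, saturated, outlier) were deposited beside them. The submitters' processing notes name limma without a version or step. In 1 resaved file (hippocampus DCX-DsRed A) 47 gene symbols were altered, so names came from an intact file. The build of the probe coordinates is not given in the sources used here.

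Control and outlier-flagged spots were dropped, the remaining spots were averaged per probe, 464 probes without an unflagged spot on some array were dropped, and 40710 remained. Values were log2 of intensity minus the array's 75th percentile. Where a gene had several probes well above background on at least 3 arrays, the one with the highest mean stood for it. limma 3.58.1 (R 4.3.3) fitted all 9 arrays with 6 residual degrees of freedom (lmFit, eBayes), adjusting by Benjamini-Hochberg over 24891 genes at 0.05; the fit was tested on simulated data. Intervals are 95%. Slide 1 held hippocampus DCX-DsRed A and B and SVZ A, slide 2 hippocampus Sox2-GFP A and B, and slide 3 the other 4 arrays.

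All members are named. Of each other list, up to 3 called genes with the largest difference are named, and for each tested member the 2 genes most correlated with it, leaving out clone and model names. The members and lists were chosen with earlier results of these data known. An "at least" fold, given where the dimmer population was not well above background on every array, sets the brighter mean against the higher, per array, of the probe's own signal and the lowest signal well above background. Where no reading lay under that lowest signal, the plain fold is given. Replicate letters did not pair the arrays (correlations of deviations -0.044 to 0.12). Alternatives were another background correction, quantile and median scaling, other filters, kept outlier spots, averaged probes, slide or replicate letter as a block, fits of 2 groups, and leaving out each array. Testing each probe in its own right was added after the data were seen.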

Additional observations from a re-analysis of the deposited data

How the results depend on the processing

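None of the 7 tested members was called in hippocampus DCX-DsRed minus SVZ Sox2-GFP cells under any of the 19 alternatives. In hippocampus DCX-DsRed minus hippocampus Sox2-GFP cells 1 member, Prox1, was called in 5 alternatives (normexp background, median scaling, well above background on all 9 arrays, slide as a block, and without hippocampus Sox2-GFP replicate B), so that leaving out each array in turn gave 0 to 1 members. In SVZ minus hippocampus Sox2-GFP cells 1 member, Emx2, was called with slide as a block. Of 396 differences of members under the alternatives, 384 kept their sign. Many of them could not turn. The replicate block, the fit of 2 groups and leaving out an array of the population not compared gave the same difference by construction. The other filters kept the same probe for each member. The count of kept signs is therefore no measure of robustness. With slide as a block the sign turned in hippocampus DCX-DsRed minus hippocampus Sox2-GFP cells for Pax6 (0.24), Emx2 (0.65) and Neurog2 (-0.038). With 1 array left out, Neurog2 in that comparison ran from -0.20 (without DCX-DsRed A) to 0.95. In SVZ minus hippocampus Sox2-GFP cells Eomes ran from -0.41 (without hippocampus Sox2-GFP C; also below 0 without SVZ A) to 0.38, Neurog2 from -0.56 to 0.17 (without hippocampus Sox2-GFP A; also above 0 without SVZ C) and Tbr1 from -0.14 (without hippocampus Sox2-GFP A) to 0.41. Neurod2 in DCX-DsRed minus SVZ cells ran from -0.63 to 0.50 (without DCX-DsRed C; also above 0 without SVZ B), and turned with probes averaged (0.055) and in its other probe tested alone (0.27). The cause was not tested. The genes called numbered 795 in DCX-DsRed minus hippocampus Sox2-GFP, 100 in SVZ minus hippocampus Sox2-GFP and 379 in DCX-DsRed minus SVZ cells. With slide as a block they numbered 2032, 2151 and 795 in the same order, and with replicate letter as a replicate block 485, 13 and 186, with no member called. Leaving out each array gave 250 to 783, 35 to 102 and 49 to 852. In SVZ minus hippocampus Sox2-GFP cells there were also 162 with normexp, 50 with the filter on all 9 arrays, 173 with probes averaged and 8 with only the 2 groups in the fit.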
